A study of Sus scrofa with 10 samples.

Results

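The 63 genes described here encode proteins of the mitochondrial ribosome of the pig. They are all rows of the deposited gene table whose symbol is MRPL or MRPS followed by a number and at most a single letter, 63 of 24358 genes listed. By symbol 39 belong to the large subunit (MRPL) and 24 to the small subunit (MRPS). No symbol occurred more than once, and no measured value took part in the choice.

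The mitochondrial ribosome stands in the mitochondrial matrix and makes the proteins encoded on the mitochondrial chromosome, which are subunits of the respiratory chain and of ATP synthase. Its ribosomal RNAs come from that chromosome, while all its proteins come from nuclear genes and are imported. The small subunit holds the messenger RNA and its decoding site, and the large subunit joins amino acids and carries the tunnel through which the new chain leaves. Oocytes and early embryos inherit their mitochondria from the mother, and the mitochondria are known to mature during the cleavage stages.

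RNA had been sequenced from pig morulae, the compacting embryo before the blastocyst forms. Every embryo came from a matured oocyte that was injected with a short interfering RNA (siRNA) and then activated parthenogenetically, that is without sperm, and cultured to the morula. The siRNA was directed against DDB1 in 5 libraries (DDB1_KD) and was non-specific in 5 libraries (NC). No uninjected or fertilised embryos entered the comparison, and neither the number of embryos per library nor the breed is stated in the labels. Whether replicates stem from separate cultures is also not stated, so p-values measure only how these libraries scatter, which may be partly technical.

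The check of the labels was DDB1 itself, which links substrates to CUL4 ubiquitin ligases. FPKM values (fragments scaled to transcript length and library size) of DDB1 averaged 3.37 ± 0.708 in NC and 1.27 ± 0.227 in DDB1_KD (SD, n = 5 per group). The highest DDB1_KD value, 1.55, lay under the lowest NC value, 2.53, and the log2 fold change was -1.39 (SE 0.28). The exact two-sided permutation p was 0.00794, the smallest that 5 against 5 libraries allow, while the p adjusted over all 8476 genes tested was 0.977 with edgeR's quasi-likelihood test. Depth ran from 32466912 to 50911295 estimated counts per library. Markers of the preimplantation embryo summed to 260 to 325 FPKM per library. DPPA2 was the highest of them, with means of 146 FPKM in DDB1_KD and 103 FPKM in NC. The sum does not speak for each marker. SOX2 fell to 0.286 FPKM in a DDB1_KD library and 0.346 FPKM in an NC library. NANOG fell to 0.633 and 0.354 FPKM in the same order. The 6 fibroblast markers summed to 0.0863 to 1.34 FPKM and 9 cumulus and granulosa cell markers to 1.30 to 2.96 FPKM. Of 5 blood cell markers, CD74 made up most of a sum of 49.8 to 96.0 FPKM, and PTPRC had a mean of at most 0.0109 FPKM in a group. HBB averaged 1.52 FPKM in DDB1_KD and 2.59 FPKM in NC, with up to 9.97 FPKM in an NC library, and LYZ averaged 0.808 and 0.234 FPKM. FSHR, CYP11A1 and AMH, which define cumulus and granulosa cells, had no count in any library. Of the same 9 markers, VCAN averaged 1.48 FPKM in DDB1_KD and 1.19 FPKM in NC, and STAR 0.461 and 0.424 FPKM. DDB1_KD replicate 4 and NC replicate 5 lay at the same end of the main direction of variation of the 63 genes, and values without them are given below where they differ.

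All 63 genes passed the filter of a mean of at least 1 FPKM over the 10 libraries, so none was left untested. Their median mean level was 72.5 FPKM, against 5.70 FPKM over all genes tested. In each library the 63 genes held 0.814% to 1.09% of the summed FPKM. In RNA from whole embryos, fewer cells and less RNA per cell cannot be told apart, and a level here is a share of each library's RNA.

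Large subunit genes ranged from 3.51 FPKM for MRPL49 to 444 FPKM for MRPL22, with a median of 77.8 FPKM. MRPL22, whose protein lines the exit tunnel, was read at 499, 571, 563, 248 and 326 FPKM in DDB1_KD replicates 1 to 5. In NC replicates 1 to 5 it was read at 408, 476, 499, 509 and 343 FPKM. The groups overlapped over most of their range, and DDB1_KD replicate 4 was the lowest library. MRPL51, a protein without a bacterial counterpart, followed at 377 ± 93.6 FPKM (SD, n = 5) in DDB1_KD against 436 ± 106 FPKM (SD, n = 5) in NC. MRPL13, a structural protein with a bacterial counterpart, stood at 402 ± 109 and 353 ± 96.8 FPKM in the same order. MRPL27, whose bacterial counterpart reaches into the peptidyl transferase centre, stood at 341 ± 73.5 and 388 ± 42.5 FPKM. MRPL46, a mitochondria-specific protein, stood at 265 ± 63.2 and 258 ± 56.6 FPKM. The ranges of these 5 genes over the 10 libraries overlapped each other, so their order is not fixed by these libraries.

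At the other end, MRPL49 (mitochondria-specific) had 2.17, 3.94, 3.36, 5.36 and 1.07 FPKM in DDB1_KD, against 2.40, 3.74, 6.03, 1.73 and 5.29 FPKM in NC. It was the gene nearest to the filter, and its groups covered nearly the same range. MRPL4, whose bacterial counterpart L4 also lines the tunnel, had 9.69 ± 2.14 FPKM in DDB1_KD against 11.3 ± 4.21 FPKM in NC (n = 5 per group, ± SD). MRPL54, another mitochondria-specific protein, had 9.12 ± 5.99 and 11.9 ± 5.52 FPKM.

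Small subunit genes covered a narrower range, from 18.3 FPKM for MRPS30 to 179 FPKM for MRPS10, with a median of 61.9 FPKM. MRPS33, a mitochondria-specific protein, was the next highest at 176 ± 28.4 FPKM in DDB1_KD against 163 ± 18.2 FPKM in NC (n = 5 per group, ± SD). MRPS36 stood at 143 ± 34.7 and 134 ± 27.0 FPKM. MRPS36 is also known as a component of the 2-oxoglutarate dehydrogenase complex, so its level need not reflect the ribosome alone. The plot of levels by gene shows each library.

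**Figure D1:**
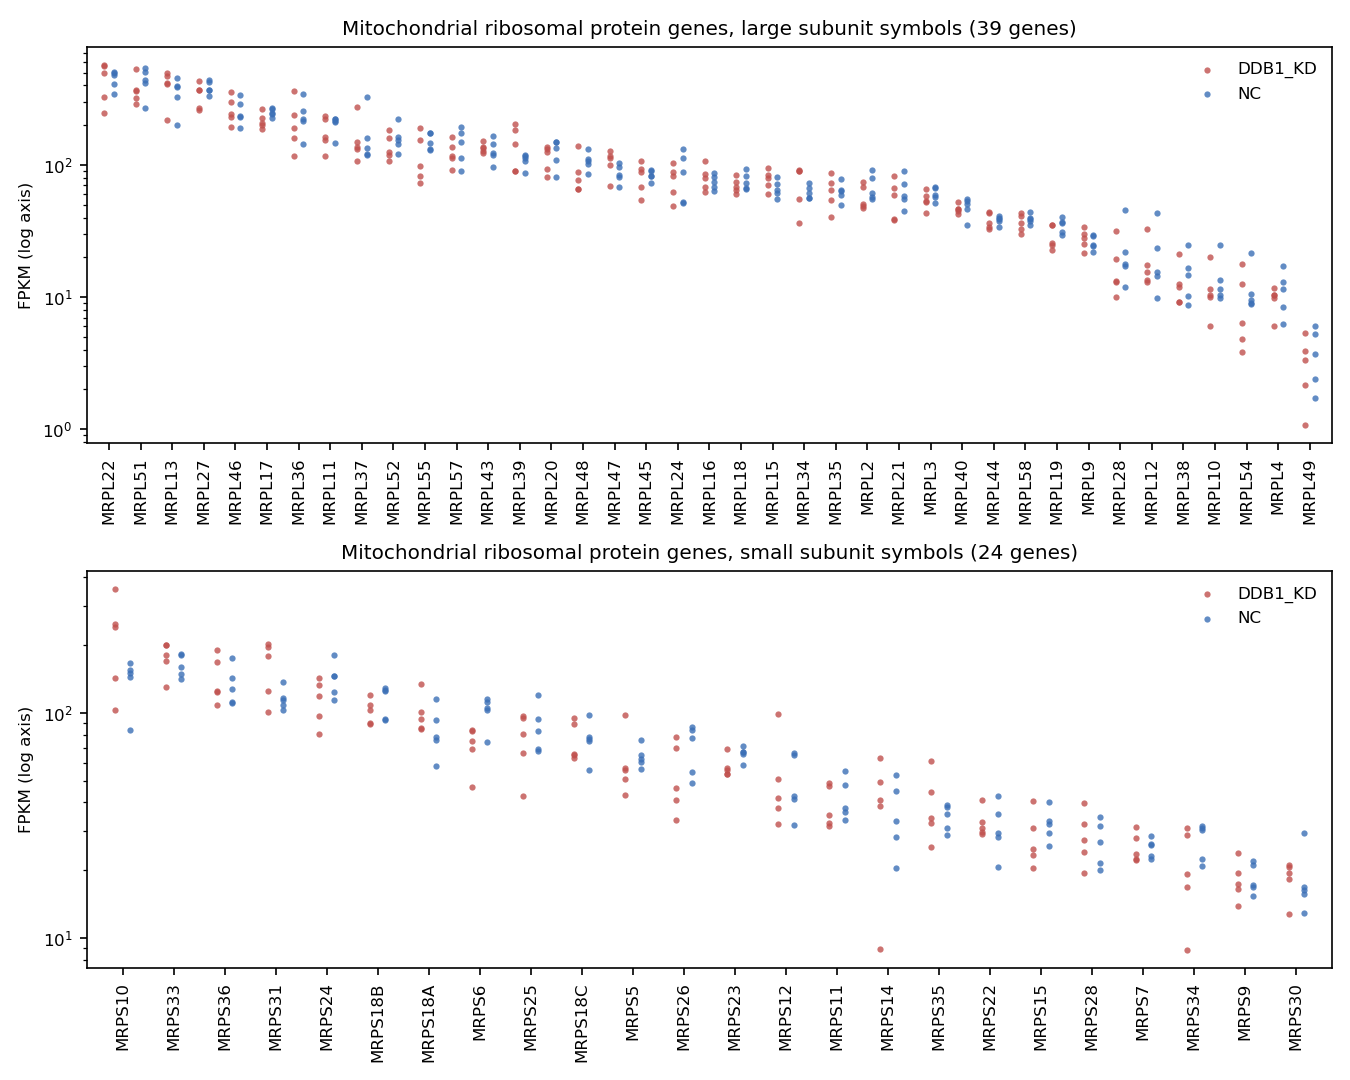
FPKM (log axis) of each mitochondrial ribosomal protein gene in each library, with 1 point per library, large subunit symbols above and small subunit symbols below, ordered by mean level. DDB1_KD and NC points overlap for all 63 genes, from MRPL22 at a mean of 444 FPKM to MRPL49 at 3.51 FPKM.

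Summed over the 39 large subunit genes, the level was 4965, 4475, 4453, 4770 and 3923 FPKM in DDB1_KD replicates 1 to 5. In NC replicates 1 to 5 the same sum was 4789, 4266, 4841, 4903 and 4977 FPKM. The lowest value belonged to DDB1_KD replicate 5, but NC replicate 2 lay below 4 of the 5 DDB1_KD libraries, and the groups overlapped. The means were 4517 ± 395 and 4755 ± 282 FPKM (n = 5 per group, ± SD), a ratio of 0.950.

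The 24 small subunit genes summed to 1767, 2020, 1717, 1593 and 1670 FPKM in DDB1_KD and to 1758, 1616, 1694, 1785 and 1640 FPKM in NC. Here DDB1_KD held both the highest and the lowest library. The means were 1753 ± 162 and 1699 ± 73.1 FPKM (n = 5 per group, ± SD), a ratio of 1.03. Each difference was smaller than the SD within DDB1_KD.

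The large sum was 2.59 ± 0.320 times the small sum in DDB1_KD and 2.80 ± 0.153 times in NC (n = 5 per group, ± SD). DDB1_KD libraries ran from 2.22 to 2.99 and NC libraries from 2.64 to 3.04, so the ratio overlapped as well. DDB1_KD replicates 2 and 5 had the lowest ratios, 2.22 and 2.35. The share of all FPKM held by the 63 genes was 0.990% ± 0.113 in DDB1_KD and 1.04% ± 0.0512 in NC (n = 5 per group, ± SD).

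**Figure D2:**
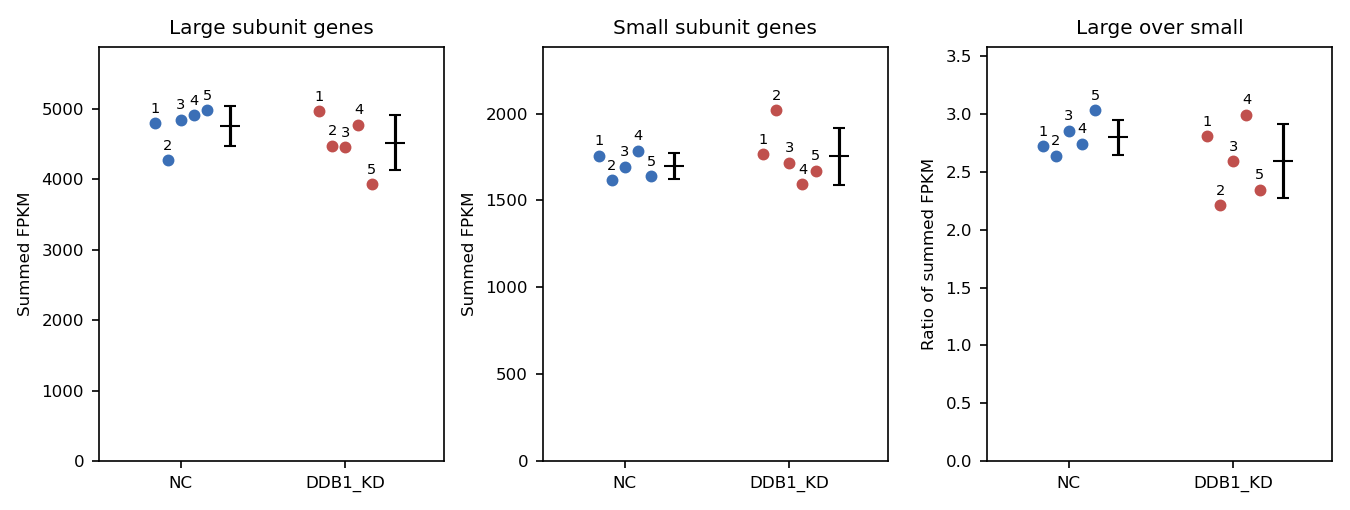
Summed FPKM of the 39 large subunit genes (left) and the 24 small subunit genes (middle), and the ratio of these sums (right), with 1 numbered point per library and the mean with SD beside each group (n = 5). The groups overlap in all panels, with large subunit means of 4517 and 4755 FPKM in DDB1_KD and NC and small subunit means of 1753 and 1699 FPKM.

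Gene by gene, no mitochondrial ribosomal protein gene passed an adjusted p of 0.05 with edgeR's quasi-likelihood test and Benjamini-Hochberg adjustment, where 0.0% of the 8476 genes tested did. DESeq2 called 0 of the 63 as well, with 0.0236% of all genes called, and limma on log2(FPKM + 1) called 0 of the 63 with 0.0% of all genes. At an unadjusted p under 0.05, edgeR's test marked 2 of the 63 genes (3.17%), against 2.89% of all genes. MRPS31 was the gene with the higher value in DDB1_KD (background 1.76%) and MRPS6 that with the lower value (background 1.13%). At this level DESeq2 marked 2 of the 63 and 353 of the 8476 genes tested. limma marked 1 of the 63 and 273 of the 8476. None of the 63 genes had DDB1_KD and NC values that did not overlap, where 0.413% of all genes did. The share marked is near the background and does not set these genes apart.

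The direction of the values differed between the subunits, without a test of that difference. Of the 39 large subunit genes 10 had a higher and 29 a lower value in DDB1_KD, and their median log2 fold change was -0.15. Of the 24 small subunit genes 12 were higher and 12 lower, with a median of 0.00. Over all genes tested, 50.0% had a higher and 50.0% a lower value, and the median was 0.00. Leaving out NC replicate 5 moved the large subunit median to -0.03 with 27 of 39 genes lower, leaving out DDB1_KD replicate 2 moved it to -0.10 and leaving out DDB1_KD replicate 5 to -0.08. Without DDB1_KD replicate 4 and NC replicate 5 together it was -0.06 with 28 of 39 lower.

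The estimates were fairly tight for these data. The 95% confidence interval of the log2 fold change stayed within -1 and 1 for 57 of the 63 genes (90.5%), against 54.8% of all genes tested, so for those 57 a difference of more than 2-fold lay outside the interval. It stayed within -0.5 and 0.5 for 12 genes. The 6 genes with wider intervals were MRPL28, MRPL49, MRPL54, MRPS10, MRPS14 and MRPS34. The median SD of log2 CPM (counts scaled to library size) within groups was 0.34 for the 63 genes, against 0.51 for all genes tested and 0.40 for the 3085 genes at a mean of 10 FPKM or more. Fold changes of all 63 genes lay between -0.51 for MRPS6 and 0.64 for MRPS10.

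**Figure D3:**
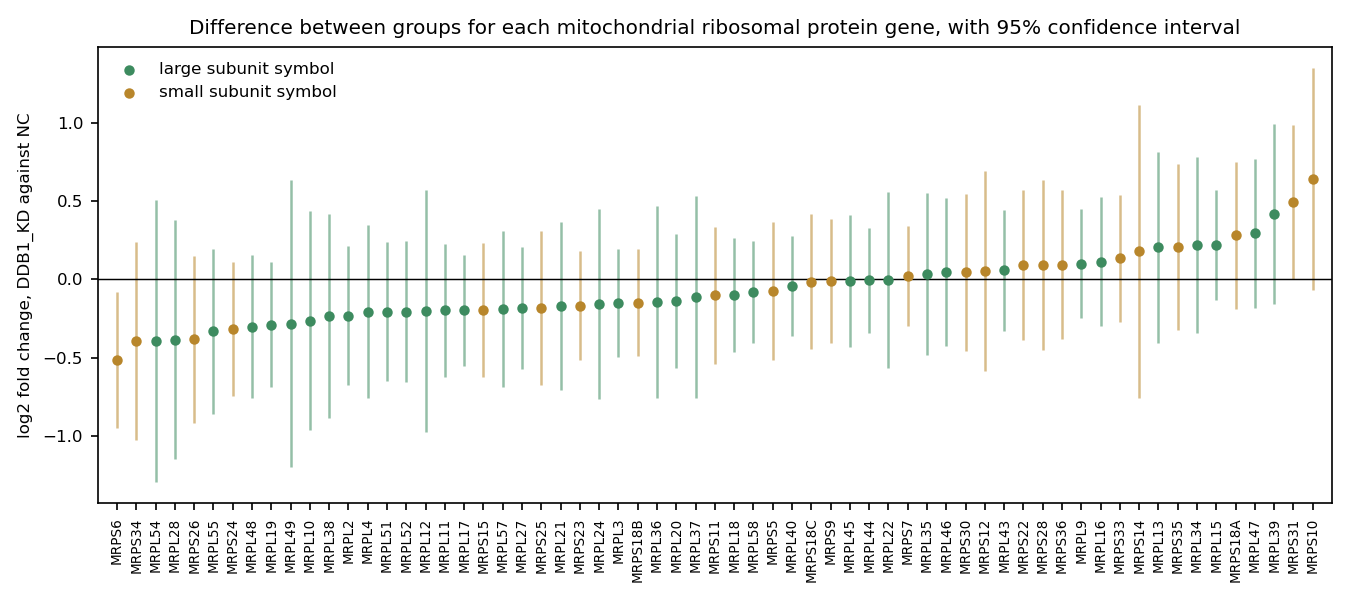
Log2 fold change of DDB1_KD against NC for each of the 63 genes with its 95% confidence interval, ordered by value and coloured by subunit. The values run from -0.51 for MRPS6 to 0.64 for MRPS10, and the intervals of MRPS6 and MRPS31 leave out 0 before adjustment.

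Among small subunit genes, MRPS6 had the smallest p. It encodes the counterpart of bacterial S6, a protein of the platform of the small subunit, and lies on the plus strand of chromosome 13 from 197688331 to 197756771 (build susScr11). Its level was 75.0, 69.2, 82.9, 83.7 and 46.7 FPKM in DDB1_KD, against 116, 105, 111, 103 and 74.3 FPKM in NC. All DDB1_KD libraries lay under 4 of the 5 NC libraries, and NC replicate 5 lay within the DDB1_KD range. The log2 fold change was -0.51 (SE 0.20, 95% confidence interval -0.95 to -0.08). The p was 0.0247 and the adjusted p 0.977 with edgeR's quasi-likelihood test, and the exact permutation p was 0.0317. The gene overlaps an unnamed gene on the other strand, from which its reads cannot be told apart where counting ignored strand.

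MRPS31, a mitochondria-specific protein, lies on the minus strand of chromosome 11 from 15450772 to 15472224. It was read at 125, 202, 197, 101 and 179 FPKM in DDB1_KD and at 103, 116, 137, 114 and 109 FPKM in NC. DDB1_KD replicates 2, 3 and 5 exceeded every NC library, and DDB1_KD replicate 4 was the lowest of the 10. The log2 fold change was 0.50 (SE 0.23), with p 0.0488 and adjusted p 0.977 in edgeR's quasi-likelihood test and an exact permutation p of 0.103.

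MRPS10, the counterpart of bacterial S10 in the head of the small subunit, lies on the minus strand of chromosome 7 from 37317992 to 37329187. Its level was 142, 354, 240, 103 and 249 FPKM in DDB1_KD, against 145, 167, 150, 155 and 83.6 FPKM in NC. The same 3 DDB1_KD libraries were high, and DDB1_KD replicate 4 and NC replicate 5 were the lowest. The log2 fold change was 0.64 (SE 0.33), the largest among the 63 genes, with an adjusted p of 0.977 in edgeR's quasi-likelihood test. It was 0.44 without DDB1_KD replicate 2.

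MRPS24, the counterpart of bacterial S3 at the entry of the messenger RNA, had 132, 97.2, 80.3, 142 and 119 FPKM in DDB1_KD, against 181, 146, 115, 145 and 124 FPKM in NC (log2 fold change -0.32, SE 0.20). The groups overlapped, with the lowest library in DDB1_KD and the highest in NC, and the fold change was -0.21 without NC replicate 1. MRPS26, a mitochondria-specific protein, had 53.7 ± 19.1 FPKM in DDB1_KD against 70.3 ± 17.4 FPKM in NC (n = 5 per group, ± SD, log2 fold change -0.38, SE 0.25). MRPS12 is the counterpart of the bacterial decoding site protein S12, and its log2 fold change was 0.05 (SE 0.29). Without DDB1_KD replicate 4, which was read at 98.5 FPKM where the rest of its group lay between 32.2 and 51.0 FPKM, the fold change of MRPS12 was -0.24. MRPS14, the counterpart of bacterial S14, varied the most of the 63 genes, with a 7.08-fold range between 8.90 FPKM in DDB1_KD replicate 4 and 63.0 FPKM in DDB1_KD replicate 2. MRPS23, a mitochondria-specific protein, varied the least, 1.33-fold over the 10 libraries (57.9 ± 6.63 FPKM in DDB1_KD against 65.9 ± 4.54 FPKM in NC, n = 5 per group, ± SD). MRPS14 and MRPS23 were chosen after their values were seen.

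MRPS30 and MRPS18A carry small subunit symbols, but their proteins sit in the large subunit of the mammalian particle. MRPS30 was read at 18.5 ± 3.35 FPKM in DDB1_KD against 18.2 ± 6.32 FPKM in NC (n = 5 per group, ± SD), with a log2 fold change of 0.05 (SE 0.23). MRPS18A was read at 100 ± 20.4 and 83.8 ± 21.3 FPKM, with a log2 fold change of 0.28 (SE 0.22) that was 0.13 without DDB1_KD replicate 5. With both counted in the large subunit, 12 of 41 large subunit genes were higher and 29 lower (median -0.14), and of the 22 remaining small subunit genes 10 were higher and 12 lower (median -0.01).

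Among large subunit genes, MRPL39, a mitochondria-specific protein, had the smallest p of those with a higher value. It was read at 89.7, 185, 144, 89.8 and 205 FPKM in DDB1_KD and at 107, 116, 119, 112 and 86.3 FPKM in NC. DDB1_KD replicates 2, 3 and 5 again lay above every NC library, while replicates 1 and 4 lay under 4 of the 5. The log2 fold change was 0.42 (SE 0.26) with an adjusted p of 0.977 in edgeR's quasi-likelihood test. It was 0.22 without DDB1_KD replicate 5.

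MRPL15, which has a bacterial counterpart, had a log2 fold change of 0.22 (SE 0.16), with 71.0, 95.5, 60.3, 83.7 and 79.3 FPKM in DDB1_KD against 55.6, 61.3, 65.1, 71.8 and 81.5 FPKM in NC. Lower values belonged to MRPL19 (-0.29, SE 0.18), MRPL48 (-0.30, SE 0.21) and MRPL55 (-0.33, SE 0.24). MRPL19 had 35.3, 25.5, 25.0, 35.1 and 22.6 FPKM in DDB1_KD, against 29.8, 37.1, 31.0, 40.5 and 36.4 FPKM in NC, so that DDB1_KD replicates 2, 3 and 5 lay under every NC library. MRPL55 had 155, 73.3, 82.3, 192 and 98.3 FPKM in DDB1_KD, against 174, 132, 146, 129 and 174 FPKM in NC. The same 3 DDB1_KD libraries were the lowest for MRPL55, and DDB1_KD replicate 4 was the highest. Without DDB1_KD replicate 4 the log2 fold change was -0.50 for MRPL55 and -0.47 for MRPL48, and without DDB1_KD replicate 2 that of MRPL55 was -0.19.

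MRPL12 forms the flexible stalk that recruits translation factors. It was read at 17.5, 15.4, 13.5, 33.0 and 13.05 FPKM in DDB1_KD and at 23.5, 9.76, 15.5, 14.5 and 43.4 FPKM in NC. Its log2 fold change was -0.20 (SE 0.36), and without NC replicate 5 it was 0.19, so its direction rested on that library. MRPL10, which anchors the stalk, behaved alike in the libraries at the ends, with 20.0 FPKM in DDB1_KD replicate 4 and 24.9 FPKM in NC replicate 5 against 6.06 to 13.5 FPKM in the other 8. MRPL11, a protein of the stalk base, had a log2 fold change of -0.20 (SE 0.19).

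Grouped by descent, 36 genes were listed as having a bacterial counterpart, of which 12 were higher and 24 lower in value (median log2 fold change -0.12), and 25 as mitochondria-specific, of which 9 were higher and 16 lower (median -0.08). MRPS18A and MRPS18B stood apart as paralogs of MRPS18C. MRPL55 was listed with the first group although it is known as a mitochondria-specific protein, and with it moved the counts were 12 of 35 and 9 of 26 higher, with both medians at -0.10. The groups by descent thus had like medians. None of their genes passed edgeR's quasi-likelihood test.

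The 63 genes varied between libraries in a shared pattern on which DDB1_KD and NC overlapped. The first principal component of their log2 CPM held 49.5% of their variance, against 15.2% for the second. Library scores on it were 0.02, 3.10, 1.47, -3.60 and 2.32 in DDB1_KD replicates 1 to 5 and -0.64, 1.34, -0.34, -0.27 and -3.41 in NC replicates 1 to 5. DDB1_KD replicate 4 and NC replicate 5 lay together at the negative end and DDB1_KD replicates 2 and 5 at the positive end. DDB1_KD thus spanned the range, while NC apart from replicate 5 lay between -0.64 and 1.34. DDB1_KD replicates 2, 3 and 5 scored above every NC library. The group means were 0.663 ± 2.64 in DDB1_KD and -0.663 ± 1.72 in NC (n = 5 per group, ± SD). The first component of all 8476 genes, which held 32.0% of their variance, placed the same libraries at its ends, with -47.6 and -48.7 for DDB1_KD replicate 4 and NC replicate 5 and 72.9 and 42.9 for DDB1_KD replicates 2 and 5.

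Of the 63 genes, 15 had a Pearson r above 0.5 with the component over the 10 libraries and 21 an r below -0.5. These shares, 23.8% and 33.3%, compare with 23.5% and 25.1% of all genes tested. The genes help define the component, so r is a description. At the positive end stood MRPS10 (r = 0.97), MRPL47 (0.94), MRPL39 (0.89), MRPL13 (0.88) and MRPS31 (0.85). MRPL28 (-0.92), MRPL54 (-0.91), MRPL36 (-0.90), MRPL12 (-0.85) and MRPL10 (-0.85) stood at the negative end. By subunit, 7 large and 8 small subunit genes exceeded 0.5, and 15 large and 6 small subunit genes lay below -0.5. The large subunit genes, in which lower values prevailed, were thus also the more frequent at the end of the component opposite to DDB1_KD replicates 2 and 5, and how far this accounts for their median was not tested.

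**Figure D4:**
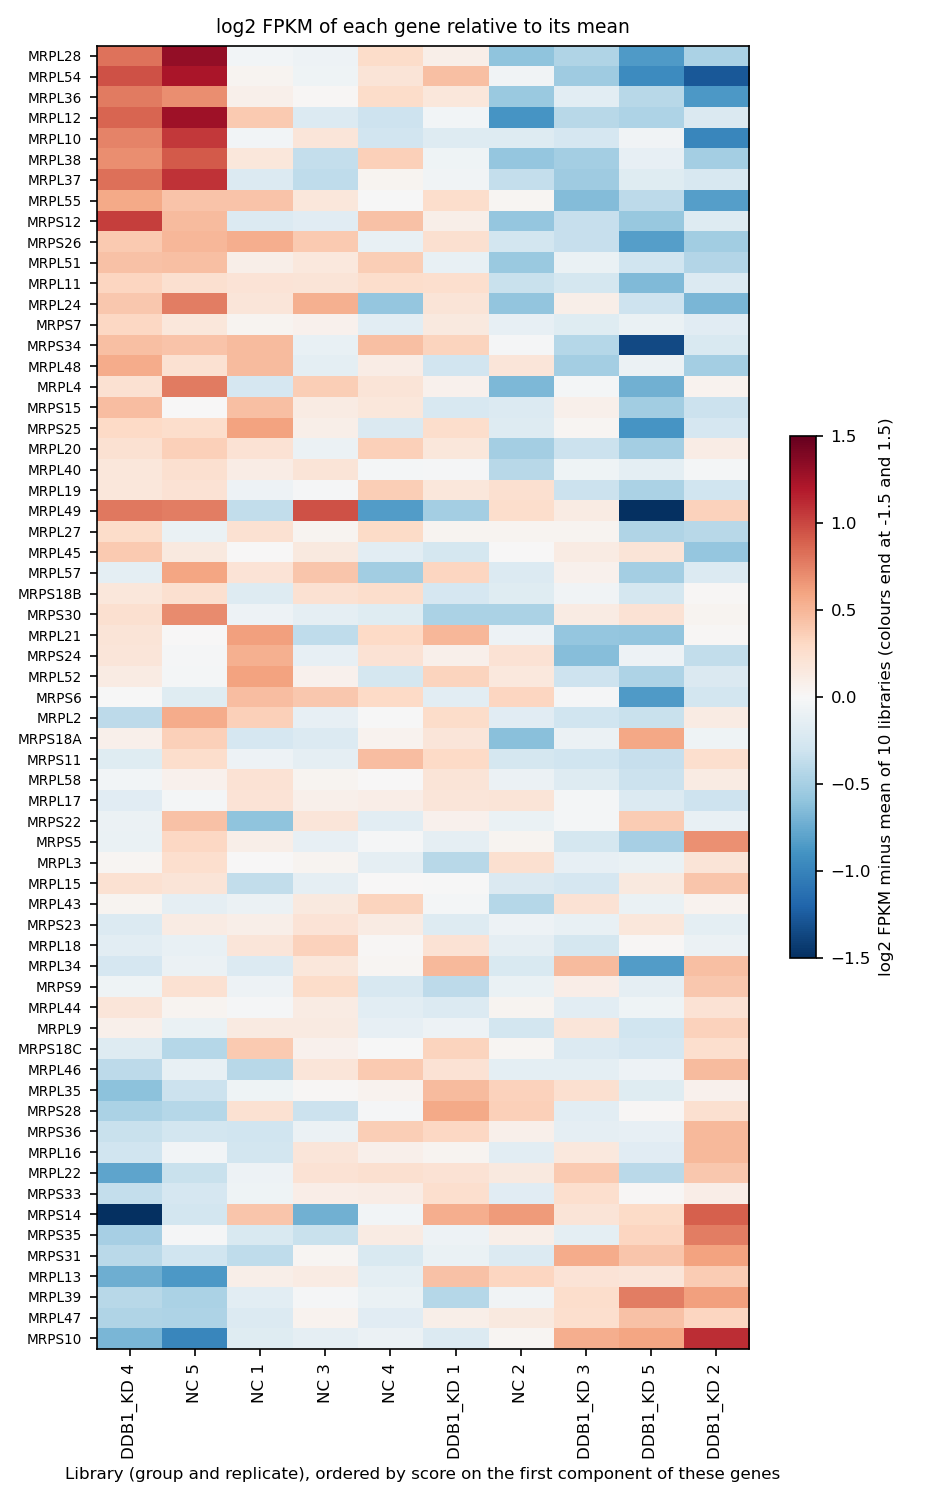
Log2 FPKM of each of the 63 genes (rows) minus its mean over the 10 libraries (columns), with genes ordered by their correlation with the first component of the 63 genes and libraries by their score on it. DDB1_KD replicate 4 and NC replicate 5 (scores -3.60 and -3.41) stand together on the left and DDB1_KD replicates 5 and 2 (2.32 and 3.10) on the right, with the other libraries of both groups between them.

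The genes of the opposite ends differed in span, the distance from the start to the end of the gene on the chromosome. The 15 genes above 0.5 had a median span of 21453 bases, the 21 below -0.5 a median of 7459 bases, and the 27 between a median of 10778 bases. Spearman's rho of r against span was 0.475 over the 63 genes and 0.219 over all 8476 genes tested. For the number of exons of the main isoform rho was 0.04 and 0.06, and for its length -0.08 and 0.03. These are correlations across genes measured in the same 10 libraries, and the genes are not independent replicates. The span follows mostly from introns, which the exon counts and transcript lengths do not measure. MRPL39, the second longest of the 63 with 84188 bases, stood at the positive end, and MRPL36, with 1270 bases, at the negative end. MRPL37 went the other way, with 52298 bases and r = -0.81, and so did MRPS6, with 68441 bases and r = -0.15.

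**Figure D5:**
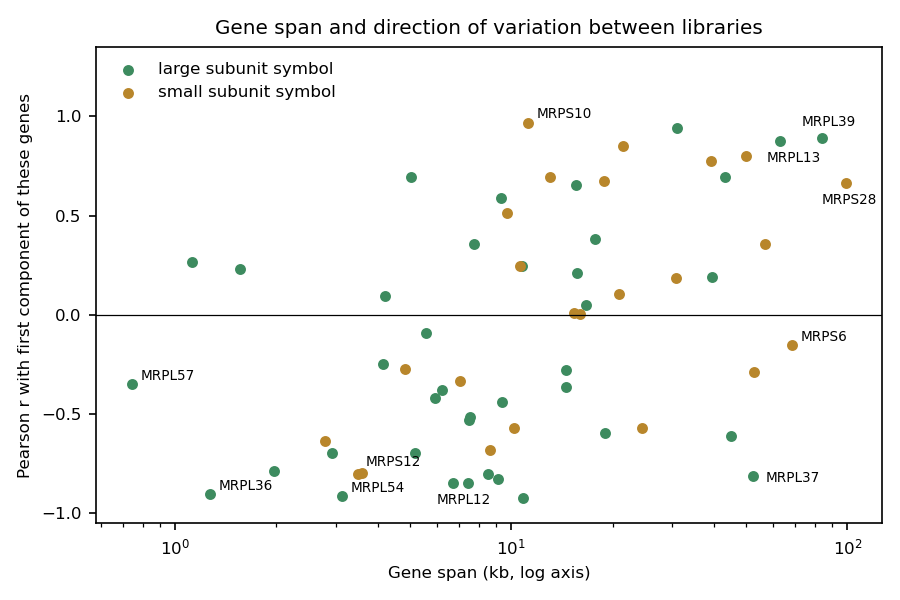
Span of each gene in kilobases (log axis) against the Pearson r of its log2 CPM with the first component of the 63 genes over 10 libraries, coloured by subunit symbol. Genes above 0.5 had a median span of 21453 bases and genes below -0.5 one of 7459 bases, with exceptions such as MRPL37 and MRPS6.

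Transcripts stored in the oocyte also differed between libraries. The mean log2 CPM of 12 oocyte genes was 1.09, 4.81, 4.31, 2.62 and 4.18 in DDB1_KD and 2.92, 2.99, 3.90, 1.93 and 1.81 in NC. DDB1_KD replicates 2, 3 and 5, in which MRPS10, MRPS31 and MRPL39 were high, had the highest oocyte transcript levels, and NC replicate 5 was among the lowest. The match was not complete. The lowest level, 1.09, belonged to DDB1_KD replicate 1, with a component score of 0.02. DDB1_KD replicate 4, with the score of -3.60, stood at 2.62. In a model with group and this level together, chosen after seeing the data, edgeR's quasi-likelihood test called 0 of the 63 genes on the oocyte transcript level, against 2.83% of all genes (2.62% with a positive slope). At an unadjusted p under 0.05 in that test, 3 of the 63 (4.76%) had a positive slope, MRPS10, MRPS31 and MRPL39, against 10.3% of all genes. A negative slope was found for 11 of the 63 (17.5%), against 9.01% of all genes. Of these, 9 were large subunit genes (23.1% of 39) and 2 small subunit genes (8.33% of 24). These shares were not tested against the background. With the level in the model the log2 fold change between groups was 0.34 for MRPS10 (0.64 without it), 0.16 for MRPL39 (0.42 without it) and 0.32 for MRPS31 (0.50 without it). These 3 genes were picked by their positive slope, so a smaller group difference here followed from the choice. Other genes did not change alike: MRPS6 stayed at -0.51, MRPS18A went from 0.28 to 0.34 and MRPL55 from -0.33 to -0.23. The large subunit median in this model was -0.05 with 25 of 39 lower. All 12 oocyte genes had a higher value in DDB1_KD, and 0 of them passed between groups. Beyond this model, the part of the oocyte transcripts in the group values was not tested.

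The particle translates the messenger RNAs of the mitochondrial chromosome. All genes listed on that chromosome, whether or not they encode proteins, took 12.2% to 24.4% of counts in DDB1_KD and 8.58% to 18.4% in NC. DDB1_KD replicate 5 had the highest share, 24.4%, and the lowest summed level of large subunit genes, 3923 FPKM. NC replicate 1 had the lowest share, 8.58%, with 4789 FPKM for the large subunit genes. NC replicate 4, with 18.4% and 4903 FPKM, combined a high share with a high sum, and no relation over the 10 libraries was computed. The mean share was 16.4% ± 4.97 in DDB1_KD and 13.2% ± 3.58 in NC (n = 5 per group, ± SD). FPKM is scaled to library size, so the sums and this share are parts of the same total. How far the share enters the sums was not tested. With mitochondrial genes left out of the edgeR fit, the large subunit median was -0.14 with 27 of 39 lower.

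The isoform table listed 97 isoforms of the 63 genes, and 86 passed the filter. None passed edgeR's quasi-likelihood test, where 0.00889% of the 11250 isoforms tested did, and 2 of the 86 (2.33%) had an unadjusted p under 0.05, against 3.36% of all isoforms. They were the single isoform of MRPS6 and the main isoform of MRPS31 (log2 fold change 0.60, SE 0.24). A single isoform was listed for 39 of the 63 genes, and of the other 24 genes 12 had over 90% of their counts in the main isoform. MRPS31 divided its counts over 3 isoforms of 46.1%, 32.5% and 21.5%, and the main isoform held 46.2% to 49.0% in DDB1_KD libraries and 39.9% to 49.2% in NC libraries.

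MRPL2, the counterpart of bacterial L2 near the peptidyl transferase centre, stood out by its isoforms and was chosen after seeing them. At least 87.9% of its counts fell on 1 of 3 isoforms in every library, but which isoform this was changed between libraries of the same group. The 1364-base isoform held 100% in DDB1_KD replicates 2, 4 and 5 and in NC replicates 3 and 5. The 1310-base isoform held 99.6% in DDB1_KD replicate 3, 99.8% in NC replicate 1 and 87.9% in NC replicate 2, and the 1074-base isoform 99.2% in DDB1_KD replicate 1 and 99.9% in NC replicate 4. MRPL2 as a gene varied only 1.94-fold over the 10 libraries (log2 fold change -0.23, SE 0.20). The 3 isoforms have 8 exons each and overlap widely, from 38116172, 38116178 and 38116177 to 38121756, 38121455 and 38120862 in the order above. A change in the RNA and a change in how counts were assigned to overlapping isoforms cannot be told apart here.

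On the chromosomes, 8 of the 63 genes lay on chromosome 12, among 459 genes tested there, and 8 on chromosome 2, among 738. A start of another gene on the opposite strand, pointing away, lay within 1000 bases of the start of 11 of the 63 (17.5%), against 9.51% of all genes tested. MRPL46 and MRPS11 formed such a pair with each other, with starts at 191321999 and 191321638 on chromosome 1 (361 bases apart). MRPL46 was read at a mean of 261 FPKM and MRPS11 at 40.6 FPKM, with log2 fold changes of 0.04 and -0.10. MRPL47 started 77 bases from NDUFB5, a subunit of respiratory complex I, with log2 fold changes of 0.29 and -0.03. MRPL18 started 125 bases from TCP1, a chaperonin subunit, with -0.10 and -0.08. MRPL40 started 198 bases from HIRA, a histone chaperone, which at 0.964 FPKM was below the filter, as was SARS2, the mitochondrial seryl-tRNA synthetase, 255 bases from MRPS12. An overlap with a gene on the opposite strand was listed for 32 of the 63 genes (50.8%), against 32.1% of all genes tested, and the sources used here do not say whether reads were counted by strand.

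Some proteins of the particle, or docking at it, carry other symbols. Of 6 such genes 1 had a higher and 5 a lower value in DDB1_KD, and 0 passed edgeR's quasi-likelihood test. Among the 5 lower was OXA1L (log2 fold change -0.03), which docks at the particle without being a ribosomal protein. CHCHD1, a small subunit protein (chromosome 14, 76507317 to 76509235, plus strand), had 278, 184, 157, 322 and 293 FPKM in DDB1_KD, against 366, 346, 412, 362 and 350 FPKM in NC. Every DDB1_KD value lay under every NC value, as in 0.224% of all genes tested. The log2 fold change was -0.57 (SE 0.20, 95% confidence interval -1.01 to -0.13), between -0.67 and -0.45 with each library left out in turn. The adjusted p was 0.977 with edgeR's quasi-likelihood test (unadjusted 0.0158) and the exact permutation p 0.00794. DAP3, a GTP-binding protein of the small subunit, went the other way, with 9.18 FPKM on average in DDB1_KD and 6.51 FPKM in NC. Its groups overlapped. The log2 fold change was 0.51 (SE 0.20), between 0.43 and 0.62 with each library left out in turn. The adjusted p was 0.977 in edgeR's quasi-likelihood test (unadjusted 0.0262) and the exact permutation p 0.0317. PTCD3, which binds the messenger RNA at the entry, had a log2 fold change of -0.25 (SE 0.22), between -0.37 and -0.10 with each library left out in turn.

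A further 11 rows without a symbol in the table were described there as mitochondrial ribosomal proteins. All 11 passed the filter, 6 had a higher and 5 a lower value in DDB1_KD, and 0 passed edgeR's quasi-likelihood test, with fold changes from -0.38 to 0.28 and a median of 0.13. They are not counted among the 63.

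Genes that serve the particle showed no call either. Among 16 mitochondrial translation factors 8 were higher and 8 lower in value, and 0 passed. TUFM, the elongation factor that delivers transfer RNA, had a log2 fold change of -0.37 (SE 0.25), C12orf65, a release factor of stalled ribosomes, one of 0.34, and MPV17L2 one of -0.43. Of 22 tested assembly and ribosomal RNA modification genes 13 were higher and 9 lower, and 0 passed. FASTKD2, which binds the large ribosomal RNA, had a log2 fold change of 0.52 (SE 0.35), GTPBP10, a GTPase of large subunit assembly, one of 0.26, and MALSU1, an assembly factor that binds the large subunit, one of -0.25. With each library left out in turn, the values ran from -0.56 to -0.25 for TUFM, 0.16 to 0.42 for C12orf65, -0.59 to -0.26 for MPV17L2, 0.35 to 0.72 for FASTKD2, 0.16 to 0.40 for GTPBP10 and -0.36 to -0.10 for MALSU1.

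Of 16 genes of mitochondrial transcription and DNA maintenance 8 were higher and 8 lower, and 0 passed. MTERF1, a termination factor of mitochondrial transcription, had a log2 fold change of 0.99 (unadjusted p 0.0263 with edgeR's quasi-likelihood test, adjusted 0.977, exact permutation p 0.0794). With each library left out in turn it ran from 0.53, without DDB1_KD replicate 5, to 1.199. TEFM, the elongation factor, had one of 0.77 (unadjusted p 0.0335 with edgeR's quasi-likelihood test, adjusted 0.977, exact permutation p 0.127). ELAC2, which trims the ends of mitochondrial transfer RNA, had one of -0.50. TEFM was read at 82.2, 62.7 and 80.0 FPKM in DDB1_KD replicates 2, 3 and 5, the libraries in which MRPS10 was also high, and at 25.3 to 40.3 FPKM in the other 7. Of 7 tested regulators of nuclear genes for mitochondria 3 were higher and 4 lower, and 0 passed. MYC had a log2 fold change of -0.96 (SE 0.68), GABPA, a subunit of a factor known to bind promoters of such genes, one of 0.15, and PPARGC1B, a coactivator, one of -0.33. With each library left out in turn they ran from -1.39 to -0.67, 0.04 to 0.26 and -0.54 to -0.12.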

How the data were processed

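The deposited tables list 24358 genes and 47421 isoforms. Per the file headers, the authors give each library an FPKM value and an estimated count. The submitters' processing notes name HISAT2, StringTie, edgeR, fastp, HOMER, ChIPseeker and the build susScr11, without saying which made which value. The deposited estimated counts are whole numbers proportional to FPKM times length, so read tallies and estimates from coverage cannot be told apart. An FPKM of 0.0001 stands wherever the count is 0.

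Groups and replicate numbers came from the sample titles. The filter, a mean of at least 1 FPKM over all 10 libraries, left 8476 genes and 11250 isoforms. The test was edgeR 4.0.16 (glmQLFit, glmQLFTest, TMM scaling, group alone, R 4.3.3), fitted on the whole table, and an adjusted p (Benjamini-Hochberg over all features) under 0.05 counted as passed. The SE was taken from the coefficient and its F statistic. Single genes also had an exact two-sided permutation test of the mean log2(FPKM + 1). limma 3.58.1 (pseudocounts 1 and 0.1) and DESeq2 1.42.0 were run beside it. Log2 CPM used a prior count of 2. Sums of FPKM, medians and principal components were described without a test. Simulated counts with known changes served to check the edgeR fits. Python 3.11.15, pandas 2.3.3, numpy 2.4.6, scipy 1.17.1 and matplotlib 3.10.9 did the rest.

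The genes and the lists were chosen with earlier results of these data known. Named with values were DDB1, the 5 genes of each subunit with the highest level, the 10 with the smallest p, the 3 nearest above the filter, MRPS30, MRPS18A, MRPL12 and MRPS12, and from each related list the 3 genes with the smallest p. Others named with values were chosen after seeing them, to show the extremes of range, of span or of correlation, a divided isoform assignment or a role. The labels do not say whether replicate numbers pair the libraries. The deviations of same-numbered libraries correlated at -0.06, 0.13, 0.35, -0.05 and -0.14, which cannot settle whether they were made in pairs. The highest correlation of log2 CPM between 2 libraries was 0.946, and none was a copy. Alternatives covered the tool, scaling, filter, pseudocount, subunit assignment, replicate block and libraries left out. The oocyte transcript level and the joint omission of DDB1_KD replicate 4 and NC replicate 5 were added after seeing the data.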

Additional observations from a re-analysis of the deposited data

Results flagged for a closer look

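In 56 sets of 5 libraries of a group, 6 held a library whose gap to the nearest of the others exceeded 0.71 of the group's range. Chance alone marks about 1 in 20 sets, and the genes share libraries. The summed level of large subunit genes was 4266 FPKM in NC replicate 2, with the other NC libraries between 4789 and 4977 FPKM. NC replicate 5 accounted for 3 of the 6. It was read at 83.6 FPKM for MRPS10 (others 145 to 167), at 21.7 FPKM for MRPL54 (others 8.87 to 10.6) and at 29.1 FPKM for MRPS30 (others 12.9 to 16.8). DDB1_KD replicate 4 accounted for 2, with 98.5 FPKM for MRPS12 (others 32.2 to 51.0) and 33.0 FPKM for MRPL12 (others 13.05 to 17.5).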

How the results depend on the processing

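No mitochondrial ribosomal protein gene and no isoform of one passed under any tool, scaling, filter, pseudocount or covariate run, nor with any library left out. Named genes kept their direction in 258 of 264 fits other than those without a single library. MRPL22 (-0.01) became 0.018 with DESeq2 and with RLE scaling, 0.0075 without mitochondrial genes and 0.066 without DDB1_KD replicate 4 and NC replicate 5. MRPS12 (0.05) became -0.14 without these 2 libraries, and MRPL12 (-0.20) became 0.023 with the oocyte transcript level in the model. With each library left out in turn, the log2 fold change ran from -0.12 to 0.16 for MRPL22, from -0.057 to 0.19 for MRPL46, from -0.0013 to 0.24 for MRPS36, from -0.24 to 0.21 for MRPS12, from -0.45 to 0.19 for MRPL12 and from -0.024 to 0.25 for MRPS30. The large subunit median ran from -0.18 to -0.03 and the small subunit median from -0.03 to 0.02, the ratio of group sums from 0.926 to 0.981 and from 0.993 to 1.06. Counting MRPS30 and MRPS18A with the large subunit lowered the NC mean of the small subunit sum from 1699 to 1597 FPKM, since fewer genes enter it. On the oocyte transcript level, 1 gene (MRPL54) passed without the group in the model, where 437 of 8476 genes did, and 0 with it. The replicate block, a paired fit although the labels do not say that the numbers pair the libraries, called 0 genes and gave medians of -0.12 and 0.00. The common biological coefficient of variation over all genes tested was 47.6%, and small differences were not detectable. Larger ones could be missed as well. DDB1 itself, at a log2 fold change of -1.39, did not pass (adjusted p 0.977 with edgeR's quasi-likelihood test).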
